A study of Mus musculus with 2 samples.

Results

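Blood neutrophils with little Retnlg RNA are described here. The data were 2 droplet single-cell RNA libraries of circulating neutrophils, 1 from C57BL/6J mice (WT) and 1 from APP/PS1 transgenic mice, a model of Alzheimer's disease that carries mutant human amyloid precursor protein and presenilin 1 transgenes. The animals were 7-month-old females, cells from 3 mice were pooled for each library, and the labels give no treatment. Red cells were lysed and neutrophils were enriched by antibody depletion of the other blood cells, so neutrophils were not sorted on a marker of their own. The WT library held 17123 barcodes and 92458623 unique molecular identifiers (UMIs, counted RNA molecules), with a median of 3345 UMIs per barcode, and the APP/PS1 library 17645 barcodes and 84870864 UMIs, with a median of 3115.

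Base cells were barcodes with at least 1000 UMIs and at most 10% mitochondrial UMIs, of which S100a8 and S100a9 made up at least 5% of the UMIs. They held under 20 UMIs per 10000 over Camp, Ngp and Ltf (immature granule genes), under 15 per 10000 over Ifit1, Ifit2, Ifit3, Ifit3b and Rsad2 (interferon response). They also held fewer than 4 UMIs over Ppbp and Pf4 (platelets). These were 5678 WT and 5492 APP/PS1 barcodes. The Retnlg-low cells were chosen by their measured Retnlg UMIs per 10000, as the lowest 25% of base cells within their own library. They numbered 1420 in WT and 1374 in APP/PS1, in all 2794 of 11170 base cells and of 34768 barcodes. They were compared with the 2838 and 2745 cells between this limit and the highest 25%, named Retnlg-middle, and the highest 25% are named Retnlg-high. Of all barcodes, 83 sequences occurred in both libraries, and 14 of these named a Retnlg-low cell in either.

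Retnlg (resistin-like gamma, chr16:48872621-48874496, plus strand, GENCODE M21 on GRCm38) encodes a small secreted protein of the resistin family and is among the most abundant transcripts of mouse blood neutrophils. Neutrophils are made in the bone marrow, where granule proteins are produced in waves, first azurophil, then specific and last gelatinase granules, and the transcripts for these proteins decline after the cells leave the marrow. In the circulation the cells are short-lived and are known to gain Cxcr4 and to carry large stores of inflammatory transcripts such as Il1b.

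Because Retnlg chose the cells, its level is only described. The median was 27.6 Retnlg UMIs per 10000 in WT Retnlg-low cells and 24.1 in APP/PS1, against 94.5 and 85.3 in Retnlg-middle cells and 257 and 236 in Retnlg-high cells. The upper limit of Retnlg-low cells was 47.5 per 10000 in WT and 43.9 in APP/PS1. The 3 WT cells just inside it held 47.4 to 47.5 and the 3 just outside 47.5 to 47.6, and the 3 APP/PS1 cells on either side held 43.9. Retnlg formed 1 continuous distribution with no gap at the limit in either library, apart from 79 WT and 60 APP/PS1 cells with no Retnlg UMI. The APP/PS1 distribution lay lower, and 28.1% of APP/PS1 base cells lay below the WT limit while 22.6% of WT base cells lay below that of APP/PS1. In barcodes with B cell markers and few S100a8 and S100a9 UMIs, which should lack the gene, Retnlg stood at 1.23 per 10000 in WT (316 barcodes, median 4704 UMIs) and 1.67 in APP/PS1 (373 barcodes, median 5766 UMIs). This comparison was chosen after the values were seen. Among these single barcodes the 95th percentile was 5.23 per 10000 in WT and 6.34 in APP/PS1. No count of Retnlg-low cells above free RNA is given, since at the depth of most of them a single UMI already exceeds the summed level.

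**Figure D1:**
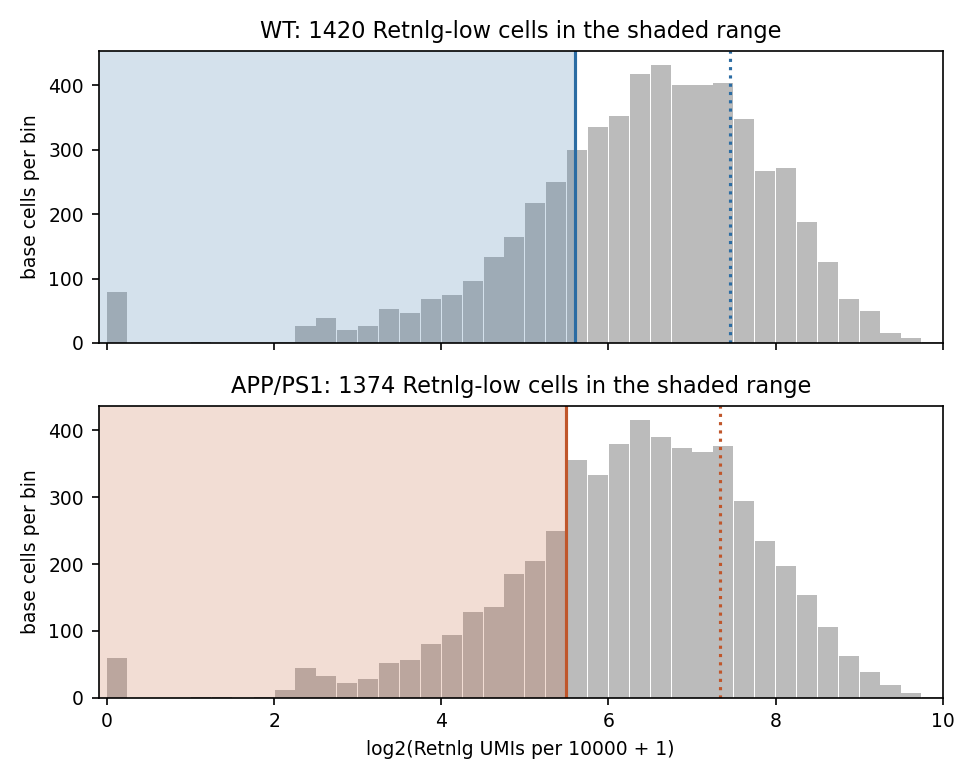
Histograms of base cells by log2 of Retnlg UMIs per 10000 plus 1 (x axis, bins of 0.25) in WT (upper panel) and APP/PS1 (lower panel), with the number of cells per bin on the y axis. The shaded range and solid line mark the Retnlg-low cells and their limit (47.5 and 43.9 per 10000), and the dotted line the lower limit of Retnlg-high cells (174 and 160). Retnlg-low cells are the lower tail of a single broad peak, with a separate bar at 0 for cells without a Retnlg UMI.

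Retnlg-low cells held fewer UMIs than cells with more Retnlg. Their median was 2311.5 UMIs in WT and 2490.0 in APP/PS1, against 2647.5 and 2794 in Retnlg-middle cells and 2941 and 3078 in Retnlg-high cells. Thinned to 1000 UMIs per cell, they nevertheless held more different genes, with medians of 523 and 516, against 500.0 and 499 in Retnlg-middle cells and 465 and 469 in Retnlg-high cells. S100a8 and S100a9, the calcium-binding proteins that dominate neutrophil RNA and one of the measures that admitted cells, made up 10.5% of UMIs in WT Retnlg-low cells and 10.4% in APP/PS1, against 14.3% and 12.7% in Retnlg-middle cells. In 48.0% of WT and 51.0% of APP/PS1 Retnlg-low cells these 2 genes were under 10% of UMIs, against 19.7% and 30.5% of Retnlg-middle cells. The 10 neutrophil markers (S100a8, S100a9, Hdc, Csf3r, Cxcr2, Ly6g, Mmp9, G0s2, Trem1 and Il1r2) were all detected, and all 10 had summed levels below Retnlg-middle cells in both libraries, where 22.7% of all genes tested were. S100a8 and S100a9 had admitted the cells, so for these 2 the detection is no check of the label, and the other 8 markers were not used by the rule. Detection in summed UMIs is a weak check for those 8 too. In the same cells all 9 B cell, 7 NK and 7 erythroid markers were also detected. At least 2 UMIs of other cell types' markers were found in 49.0% of WT and 42.6% of APP/PS1 Retnlg-low cells, against 50.6% and 48.8% of Retnlg-middle cells. This count was not scaled to depth, and the median UMIs of Retnlg-low cells were fewer. Levels of these markers relative to all UMIs are given below.

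With all base cells, 5093 genes had at least 200 UMIs over Retnlg-low and Retnlg-middle cells in each library. Of these, 97 (1.90%) were higher in Retnlg-low cells by a log2 ratio of summed CPM (UMIs per 1e6 UMIs of the cells) of 0.5 or more in both libraries, while 8 (0.157%) were lower by as much. Each genotype had 1 library, so no ratio could be tested, and intervals cover counting error only. The 15 highest, ordered by mean ratio, were Igkc, Prf1, Ccl5, Gzma, Nkg7, Gzmb, Ifi203, Eif3i, AW112010, Ms4a4b, Lgals1, Krtcap2, Ahnak, Crip1 and Fn1. Among them were an antibody chain, cytotoxic granule genes of natural killer (NK) cells and T cells, and genes abundant in monocytes (Fn1, Ahnak, Crip1, Lgals1). Igkc, the antibody kappa chain, stood at 841, 27.6 and 13.8 CPM in Retnlg-low, Retnlg-middle and Retnlg-high WT cells, and at 57.8, 29.1 and 34.5 CPM in those of APP/PS1. In WT, 10 cells held 98.2% of the Igkc UMIs of all 1420 Retnlg-low cells, and 10 cells held 98.9% of Igha and 99.8% of Jchain UMIs, which plasma cells also express. In APP/PS1, 10 cells held 64.8% of the Igkc UMIs. Gzma, the granzyme A of NK cells, stood at 201, 102 and 44.1 CPM in Retnlg-low, Retnlg-middle and Retnlg-high WT cells, and at 337, 130.1 and 66.0 CPM in those of APP/PS1. Of its UMIs, 10 cells held 80.0% in WT and 50.5% in APP/PS1.

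Barcodes above 5000 UMIs were 205 of 1420 Retnlg-low cells in WT and 142 of 1374 in APP/PS1, and they held 40.7% and 28.3% of all UMIs of the Retnlg-low cells. In Retnlg-middle cells they were 16.3% and 16.2% of cells. In these deep Retnlg-low cells, erythroid markers, led by Hbb-bs, summed to 43452 CPM (WT) and 23952 CPM (APP/PS1), against 3102 and 2669 CPM in Retnlg-low cells of at most 5000 UMIs. Monocyte markers summed to 3832 and 2921 CPM against 801 and 707 CPM, NK markers to 583 and 1420.5 CPM against 110.2 and 164 CPM, and B cell markers to 2433 and 377 CPM against 132 and 129 CPM. Neutrophil markers went the other way, with 84208 and 86987 CPM in the deep cells against 137052 and 124551 CPM in the rest. Over all Retnlg-low cells, NK markers stood at 303 CPM (WT) and 519 CPM (APP/PS1) against 151 and 209 CPM in Retnlg-middle cells, with all 7 of 7 genes detected and Gzma the most abundant. The monocyte list (14 of 14 detected) stood at 2036 and 1333 CPM against 1501 and 1071 CPM, led by Ctss in WT and by Klf13 in APP/PS1. Erythroid markers (7 of 7 detected) were at 19541 against 9449 CPM in WT and at 8690 against 9233 CPM in APP/PS1, so their order differed between the libraries. B cell markers (9 of 9 detected) stood at 1069 against 155 CPM in WT and 199 against 146 CPM in APP/PS1. Class II and dendritic cell markers stood at 480.3 against 309 CPM in WT and 194 against 139 CPM in APP/PS1, led by Cd74 and with Siglech and Xcr1 at 0. T cell markers (9 of 10 detected, Cd4 at 0) stood at 55.8 against 27.6 CPM and 70.0 against 40.1 CPM, led by Trbc2. Eosinophil markers stood at 93.3 against 51.3 CPM in WT and 55.0 against 55.7 CPM in APP/PS1, led by Ear2 and with Epx and Prg2 at 0. Basophil markers stood at 1.90 against 19.9 CPM and 0.468 against 2.91 CPM, and platelet markers at 809 against 674 CPM and 1019.6 against 864 CPM. By Scrublet, a score of doublets (2 cells in 1 droplet), 11.6% of WT and 7.64% of APP/PS1 Retnlg-low cells were among the 8% of barcodes with the highest score in their library, against 5.85% and 7.10% of Retnlg-middle cells. The 97 genes were therefore counted again without such barcodes.

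**Figure D2:**
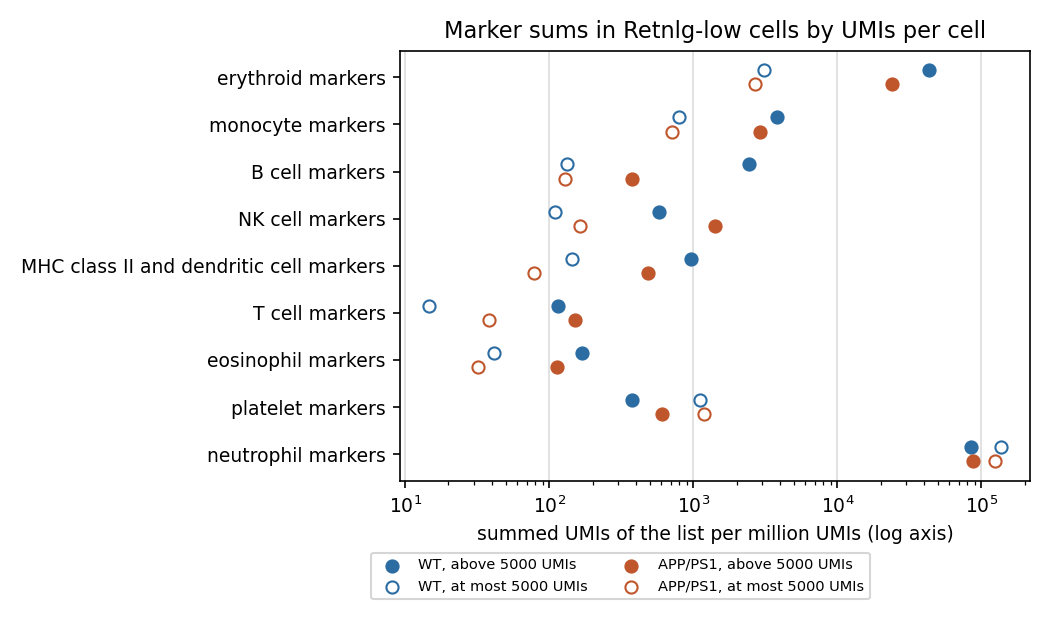
Summed UMIs of each cell type's marker list in CPM (x axis, log scale) in Retnlg-low cells above 5000 UMIs (filled points) and of at most 5000 UMIs (open points), in WT (blue) and APP/PS1 (orange). Markers of red cells, monocytes, B, NK, class II, T and eosinophil type lie higher in the deep cells in both libraries, and neutrophil and platelet markers lie lower, the latter with Ppbp and Pf4 capped by the rule at fewer than 4 UMIs per cell at any depth.

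With barcodes above 5000 UMIs left out and the Retnlg limits taken again, the Retnlg-low cells were 1227 in WT and 1193 in APP/PS1. In WT these are not a subset of the first, of which 1215 had at most 5000 UMIs. In APP/PS1 they are fewer than the 1232 of the first with at most 5000 UMIs. Of 3690 genes with enough UMIs, 31 (0.840%) were then higher and 6 (0.163%) lower in both libraries. Of the 97 genes higher with all base cells, 28 still had enough UMIs and 8 were still called, and of the 8 lower genes 4 were. Leaving out instead every base cell with 2 or more UMIs of other cell types' markers made the lowest 25% 699 WT and 716 APP/PS1 cells and gave 9 higher (0.347%) and 1 lower (0.0386%) of 2590 genes, with 1 of the 97 shared. Leaving out cells with 15 or more such UMIs per 10000, red cell markers included, gave 5 higher (0.173%) and 10 lower (0.347%) of 2883. The settings by 5000 UMIs and by 15 per 10000 were chosen after the data had been seen. Most of the 97 genes were thus not called, or had too few UMIs, in each of these settings. In the text that follows, values are from cells of at most 5000 UMIs unless all base cells are named.

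Of the 6 lower genes, 3 encode proteins of granules or of the neutrophil surface, and these are described first. Ly6g, the GPI-anchored antigen by which mouse neutrophils are identified in flow cytometry (chr15:75155240-75159126, plus strand), stood at 65.8, 159 and 325 CPM in Retnlg-low, Retnlg-middle and Retnlg-high WT cells, and at 83.1, 122 and 254 CPM in those of APP/PS1. The log2 ratio to Retnlg-middle cells was -1.27 in WT (95% interval -1.51 to -1.05) and -0.56 in APP/PS1 (95% interval -0.77 to -0.35), so Ly6g RNA was less than in Retnlg-middle cells in both libraries. Mmp8, the neutrophil collagenase of specific granules (chr9:7558456-7568485, plus strand), stood at 308, 478 and 757 CPM in Retnlg-low, Retnlg-middle and Retnlg-high WT cells, and at 288, 429 and 667 CPM in those of APP/PS1. Its log2 ratios to Retnlg-middle cells were -0.64 in WT (95% interval -0.75 to -0.53) and -0.58 in APP/PS1 (95% interval -0.69 to -0.46). Cd177, a GPI-anchored protein of the surface and of specific granules (chr7:24743983-24760311, minus strand), stood at 37.0, 63.3 and 97.2 CPM in Retnlg-low, Retnlg-middle and Retnlg-high WT cells, and at 29.4, 43.9 and 92.1 CPM in those of APP/PS1. The log2 ratios of Cd177 to Retnlg-middle cells were -0.78 in WT (95% interval -1.10 to -0.46) and -0.58 in APP/PS1 (95% interval -0.94 to -0.23). All 3 genes were lowest in Retnlg-low and highest in Retnlg-high cells of each library. With all base cells their ratios were -1.25 and -0.58, -0.68 and -0.63 and -0.64 and -0.53. Without cells with 2 or more UMIs of other types they were -1.23 and -0.44, -0.68 and -0.45, and -0.60 and -0.43, where APP/PS1 no longer passed 0.5 for any of them.

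The other lower genes of at most 5000 UMIs were Atxn10 (ratios -0.70 and -0.60 in WT and APP/PS1), Card6 (-0.57 and -0.62) and Ccdc189 (-0.52 and -0.58). Atxn10 and Card6 lie outside the rule for named genes and were picked after their values were seen. With all base cells the remaining 5 of the 8 were Rdh12, a retinal-reducing enzyme (-0.78 and -0.57), Mov10, an RNA helicase (-0.53 and -0.80), Ccdc189 (-0.50 and -0.75), Tmem120a (-0.51 and -0.59) and Ifit1 (-0.53 and -0.53). Ifit1 belongs to the interferon genes that the rule limits, and in cells of at most 5000 UMIs its ratio was 0.06 and 0.11.

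Several granule and secreted genes were below 0 in both libraries and short of the limit in 1 or both. Lcn2, the iron-chelating lipocalin of specific granules, stood at 1009.5 against 1614 CPM (WT) and 920.0 against 1217 CPM (APP/PS1) (ratios -0.68 and -0.40). Wfdc21, a whey acidic protein of neutrophils, stood at 622 against 995 CPM (WT) and 625 against 860.0 CPM (APP/PS1) (-0.68 and -0.46). Lyz2, lysozyme, stood at 2338 against 3094 CPM (WT) and 2199 against 2913 CPM (APP/PS1) (-0.40 and -0.41). Over all base cells Lyz2 differed less, at 3885 against 3961 CPM (WT) and 3078 against 3319 CPM (APP/PS1). Timp2, an inhibitor of metalloproteinases, stood at 156 against 240.3 CPM (WT) and 164 against 209 CPM (APP/PS1) (-0.62 and -0.35), and Mmp25, a membrane-bound metalloproteinase, at 54.2 against 78.3 CPM (WT) and 48.3 against 62.7 CPM (APP/PS1) (-0.53 and -0.38). S100a8 and S100a9, which the rule used to admit cells, had ratios of -0.41 and -0.35 and -0.41 and -0.32, and S100a6 of -0.38 and -0.32.

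As lists, 10 of 15 tested genes of freshly released neutrophils (Ly6g, Mmp8, Cd177 and Lcn2 among those) were below 0 in both libraries, 8 of 12 gelatinase and secretory granule genes and 6 of 10 specific granule genes, where 15.9% of all genes tested were. Their median log2 ratios were -0.21 in WT and -0.18 in APP/PS1, -0.16 in WT and -0.15 in APP/PS1, and -0.08 in WT and -0.12 in APP/PS1, against 0.10 in WT and 0.07 in APP/PS1 for all genes tested. Itga4, an integrin chain, went against the first of these lists (0.44 and 0.36), and Cxcr2 hardly differed (0.02 and -0.02). Over all base cells Cxcr2 was lower, at 1156 against 1302 CPM (WT) and 1341 against 1460 CPM (APP/PS1). Glycolysis genes were below 0 in 9 of 17, with medians of -0.08 in WT and -0.14 in APP/PS1, among them Gapdh (-0.29 and -0.25) and Pgk1 (-0.27 and -0.39). Stefin A genes, cysteine protease inhibitors whose near-identical copies can share reads, were below 0 in 3 of 4. Azurophil granule genes, made earliest in the marrow, summed to 1149 against 1082 CPM in WT and 1227 against 1202 CPM in APP/PS1, so this list was not lower in Retnlg-low cells. Of 9 genes in the files, 3 could be compared. Ctsd, a lysosomal protease that many cell types make and, with all base cells, the most abundant of the list, stood at 853 against 857 CPM (WT) and 996 against 1008 CPM (APP/PS1) (ratios -0.01 and -0.02), and Ctsb, another such protease, at 193 against 139 CPM (WT) and 151 against 114 CPM (APP/PS1) (0.47 and 0.40). Mpo was at 0 and Elane at no more than 1 UMI in the Retnlg-low cells of a library, all base cells included. Of the resistin family only Retn could be tested besides Retnlg, with ratios of 0.00 and -0.16.

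Promoter stretches of Ly6g, Mmp8 and Lcn2, of which Lcn2 was short of the limit in APP/PS1, are shown because they hold the same letters. The letters TTGCNNAA are the core of sites bound by C/EBP proteins, which drive granule genes during granulocyte differentiation. They were searched on both strands in the 250 bases before each RefSeq start of a gene (GRCm38.p6), and 9.56% of 32851 such stretches held them. This share is per stretch, whereas a gene, which can have several starts, was counted if any of its stretches held the letters. The gene counts and the share are therefore unlike measures. Of 5 lower genes with a promoter in the table, Ly6g and Mmp8 held them, and of 13 genes of freshly released neutrophils 4 did (Anxa1, Lcn2, Ly6g and Mmp8). Retnlg held them once, at chr16:48872358-48872379, 246 bases before its start. The stretches, 5′ to 3′ on the strand of the gene with the matched letters in capitals, lie at chr15:75155019-75155046, chr9:7558400-7558427, chr2:32387938-32387965 and chr16:48872358-48872379.
Ly6g: taggaaggggTTGAGCAAgttgcctctt
Mmp8: taggcagaagTTGCTCAAgatgtagctt
Lcn2: gcccttcctgTTGCTCAAccttgcacag
Retnlg: agctTTCTGCAAggcattccag
In Mmp8 and Lcn2 the letters lie on the strand of the gene and in Ly6g and Retnlg on the opposite strand. The Lcn2 stretch lies before a RefSeq start that is inside the GENCODE bounds of the gene. A match is a description of these bases and says nothing on binding.

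Of the 31 higher genes in cells of at most 5000 UMIs, 8 had also been called with all base cells. Pmaip1, Gngt2, Clec4n and Dusp2, described below, were not among these 8. The genes given next lie outside the rule for named genes unless they are in one of the gene lists, and were picked after their values were seen. Pmaip1 (Noxa, a BH3-only protein that counters Mcl1) stood at 101, 54.6 and 26.7 CPM in Retnlg-low, Retnlg-middle and Retnlg-high WT cells, and at 158, 99.6 and 53.0 CPM in those of APP/PS1. Its log2 ratios to Retnlg-middle cells were 0.89 in WT (95% interval 0.66 to 1.12) and 0.66 in APP/PS1 (95% interval 0.49 to 0.84). Gngt2, a G protein gamma subunit (chr11:95837216-95845734, plus strand), stood at 182, 97.1 and 67.4 CPM in Retnlg-low, Retnlg-middle and Retnlg-high WT cells, and at 184, 115 and 62.3 CPM in those of APP/PS1. Its log2 ratios to Retnlg-middle cells were 0.91 in WT (95% interval 0.74 to 1.08) and 0.68 in APP/PS1 (95% interval 0.52 to 0.84). Clec4n (Dectin-2, a receptor for fungal mannans, chr6:123229843-123247021, plus strand) stood at 50.7, 29.1 and 14.2 CPM in Retnlg-low, Retnlg-middle and Retnlg-high WT cells, and at 73.0, 39.9 and 18.7 CPM in those of APP/PS1. The log2 ratios of Clec4n to Retnlg-middle cells were 0.80 in WT (95% interval 0.48 to 1.12) and 0.87 in APP/PS1 (95% interval 0.61 to 1.14). Dusp2, a nuclear phosphatase that inactivates MAP kinases (chr2:127336159-127338376, plus strand), stood at 83.8, 51.3 and 29.2 CPM in Retnlg-low, Retnlg-middle and Retnlg-high WT cells, and at 100.3, 60.9 and 29.0 CPM in those of APP/PS1. Its log2 ratios to Retnlg-middle cells were 0.71 in WT (95% interval 0.46 to 0.95) and 0.72 in APP/PS1 (95% interval 0.50 to 0.94). For each of these genes the 95% counting intervals of Retnlg-low and Retnlg-middle cells did not overlap in either library. The genes had been picked by these ratios, so this largely follows from the choice and is no check. Their level was lower in each group with more Retnlg.

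**Figure D3:**
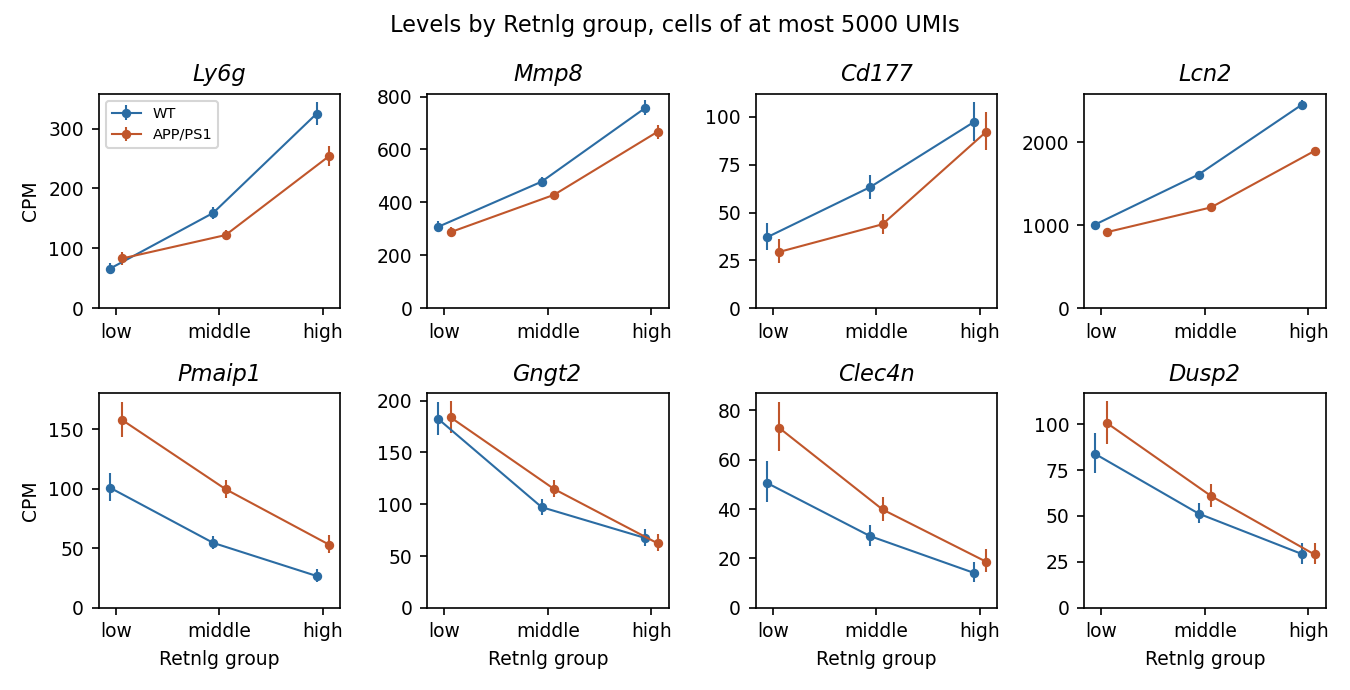
Levels in CPM (y axes, from 0) of 8 genes in Retnlg-low, Retnlg-middle and Retnlg-high cells (x axes), in WT (blue) and APP/PS1 (orange), in cells of at most 5000 UMIs. Points are summed CPM of 1 library with exact 95% Poisson intervals. Ly6g, Mmp8, Cd177 and Lcn2 are lowest in the Retnlg-low cells, and Pmaip1, Gngt2, Clec4n and Dusp2 are highest there.

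Others had roles in sensing, transcription and survival. Of these, Nod1, Itgax, Gm2a, Bhlhe40, Runx1, Bcl2a1a, Igfbp6 and Tgm2 were not called with all base cells. Nod1, a sensor of bacterial peptidoglycan, stood at 53.9 against 36.2 CPM (WT) and 75.3 against 51.9 CPM (APP/PS1) (ratios 0.57 and 0.54). Itgax (CD11c) stood at 40.1 against 26.7 CPM (WT) and 43.6 against 25.3 CPM (APP/PS1) (0.59 and 0.78). Gm2a, the activator protein of ganglioside breakdown, stood at 467 against 319.9 CPM (WT) and 477 against 337 CPM (APP/PS1) (0.55 and 0.50). Both are in the list of genes reported high in aged neutrophils. Bhlhe40, a transcriptional repressor, stood at 76.4 against 49.7 CPM (WT) and 53.4 against 32.4 CPM (APP/PS1) (0.62 and 0.72). Runx1, a transcription factor of blood cell formation, stood at 83.4 against 57.5 CPM (WT) and 76.4 against 51.1 CPM (APP/PS1) (0.54 and 0.58). Bcl2a1a, an antiapoptotic BCL2 protein whose near-identical copies Bcl2a1b and Bcl2a1d can share its reads, stood at 32.4 against 19.6 CPM (WT) and 36.5 against 25.8 CPM (APP/PS1) (0.73 and 0.50). The copies had ratios of 0.64 and 0.16 and 1.02 and 0.48. Igfbp6, a binding protein of insulin-like growth factors, had ratios of 0.75 and 0.63, Tgm2, transglutaminase 2, of 0.54 and 0.74, and Plac8 of 0.87 and 0.66. Also among the 31 were 4 ribosomal protein genes (Rpl12, Rpl35, Rpl36al and Rps28). Hbb-bt, a haemoglobin chain not called with all base cells, and Gzma, called in both, were among them too, with ratios of 0.71 and 0.64 and 0.64 and 1.73. NK markers in these cells summed to 109 CPM (WT) and 169 CPM (APP/PS1), against 71.5 and 52.2 CPM in Retnlg-middle cells. T cell markers stood at 14.4 against 9.79 CPM in WT and 39.2 against 11.3 CPM in APP/PS1, and class II and dendritic cell markers at 144 against 85.3 CPM in WT and 74.0 against 72.8 CPM in APP/PS1. Eosinophil markers stood at 40.8 against 21.3 CPM in WT and 33.1 against 30.0 CPM in APP/PS1, and erythroid markers at 3085 against 2635 CPM in WT and 2725 against 2102 CPM in APP/PS1. Monocyte markers were at 799.7 against 733 CPM and 706 against 667 CPM, and B cell markers at 131 against 123 CPM and 125.3 against 115 CPM. The part of these cell types in the 31 genes was not tested.

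Pmaip1, Dusp2, Clec4n, Tgm2 and Nod1 were the 5 genes called with 15 or more other UMIs per 10000 left out. Pmaip1, Dusp2, Gngt2, Igfbp6, Plac8, Bhlhe40, Gm2a, AW011738 and Ppp1r15a, which encodes a stress-induced phosphatase subunit, were the 9 called without cells of 2 or more other UMIs. Pmaip1 and Dusp2 alone were called in all 3 of these restricted settings, and neither had been called with all base cells. The levels depended on the scaling. TMM factors, which centre the middle of the gene ratios, moved the median log2 ratio of all genes from 0.10 in WT and 0.07 in APP/PS1 to -0.07 in WT and -0.06 in APP/PS1. Then 6 genes were higher (Clec4n, Dusp2, Gngt2, Hbb-bt, Plac8 and Pmaip1, 0.163%) and 28 lower (0.759%). With all base cells the same change moved the median from 0.08 in WT and 0.05 in APP/PS1 to -0.10 in WT and -0.07 in APP/PS1, and the split from 97 higher and 8 lower to 31 (0.609%) and 29 (0.569%). The calls thus shifted towards lower genes under TMM.

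**Figure D4:**
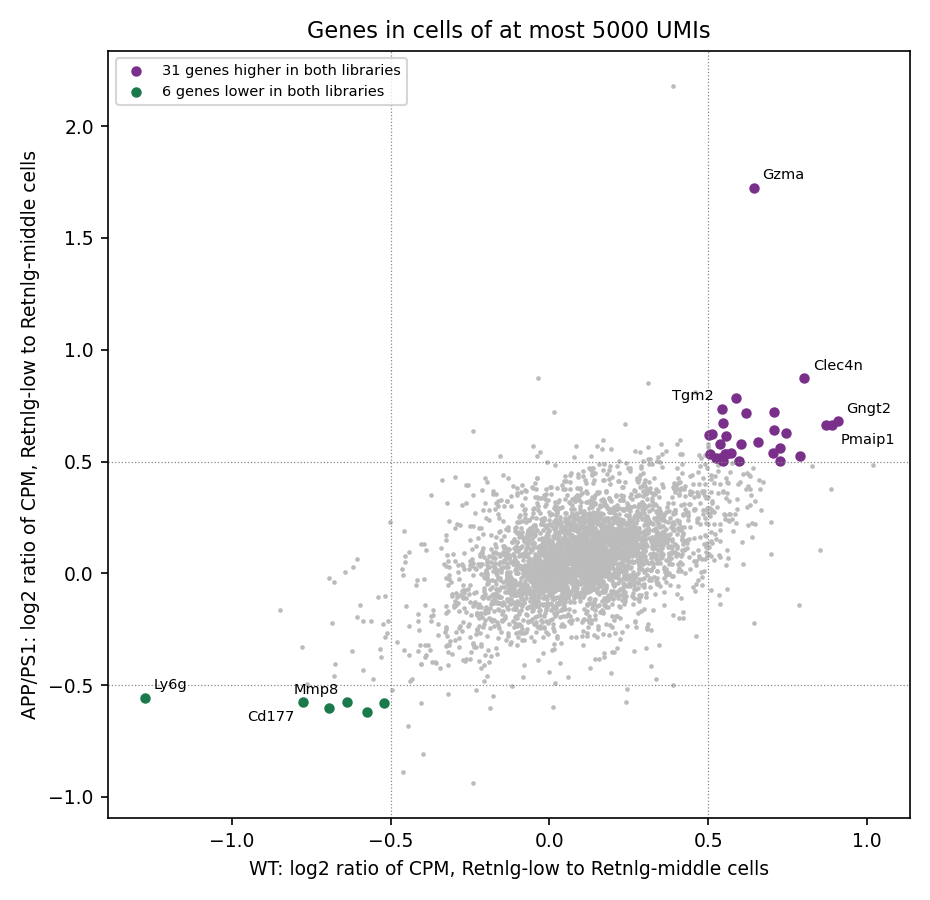
Log2 ratio of CPM, Retnlg-low cells to Retnlg-middle cells, in WT (x axis) and APP/PS1 (y axis), for 3690 genes in cells of at most 5000 UMIs, Retnlg left out. Each point is 1 gene, purple marks the 31 genes at 0.5 or more and green the 6 at -0.5 or less in both libraries, and dotted lines mark these limits. Ly6g lies far to the left and Gzma far above the other called genes.

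In Retnlg-high cells, 28 of the 31 higher genes were lower than in Retnlg-middle cells in both libraries, and 4 of the 6 lower genes were higher. Over all 3690 genes, 1568 were lower in each group with more Retnlg in both libraries, out of 2033 that were above 0 in both, so this order was common among genes higher in Retnlg-low cells. The reverse order was found in 225 genes, out of 587 below 0 in both.

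Lists of inflammatory and survival genes lay above the median of all genes, by small amounts. In cells of at most 5000 UMIs, 55.1% of all genes tested were above 0 in both libraries. Among NF-kB genes and their feedback inhibitors 10 of 13 were, with medians of 0.23 in WT and 0.20 in APP/PS1 against 0.10 in WT and 0.07 in APP/PS1 for all genes. Nfkbia, the inhibitor that NF-kB itself induces, stood at 768 against 578 CPM (WT) and 707 against 617 CPM (APP/PS1) (ratios 0.41 and 0.20). Over all base cells Nfkbia differed less, at 707 against 639 CPM (WT) and 670 against 648 CPM (APP/PS1). Tnfaip3 (A20) had ratios of 0.39 and 0.14, Rel of 0.23 and 0.29, Nfkb2 of 0.54 and 0.19 and Traf1 of 0.64 and 0.23. Rela had ratios of 0.00 and -0.14 and Bcl3 of 0.00 and -0.09. Interleukin-1 and TNF genes were above 0 in 8 of 11, with medians of 0.24 in WT and 0.18 in APP/PS1. Il1b, the interleukin-1 beta precursor, stood at 18259.8 against 15050.3 CPM (WT) and 17248 against 15175 CPM (APP/PS1). The log2 ratios of Il1b to Retnlg-middle cells were 0.28 in WT (95% interval 0.26 to 0.29) and 0.18 in APP/PS1 (95% interval 0.17 to 0.20). Over all base cells Il1b differed less, at 14130 against 13672 CPM (WT) and 15403 against 14175.5 CPM (APP/PS1). Its antagonist Il1rn had ratios of 0.25 and 0.31, and Tnfrsf1b, a TNF receptor, of 0.41 and 0.38.

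Survival and death genes were above 0 in 11 of 13, with medians of 0.28 in WT and 0.17 in APP/PS1. The list was led by Pmaip1 and the Bcl2a1 copies, with Bax at 0.24 and 0.41, Bcl2l11 (Bim) at 0.28 and 0.30 and Mcl1 at 0.09 and 0.07. Over all base cells Mcl1 turned to lower, at 3392 against 3536 CPM (WT) and 3624 against 3727 CPM (APP/PS1). The summed survival list there stood at 6132 against 6065 CPM (WT) and 6351 against 6352 CPM (APP/PS1). Immediate early genes were above 0 in 24 of 25, with medians of 0.19 in WT and 0.11 in APP/PS1. Nr4a1, an orphan nuclear receptor induced within minutes of stimulation, stood at 444 against 312 CPM (WT) and 469 against 346 CPM (APP/PS1) (0.51 and 0.44). Atf3 had ratios of 0.46 and 0.28 and Egr1 of 0.41 and 0.20, whereas Fos (0.05 and 0.04) and Jund (0.03 and 0.04) hardly differed. With all base cells only 10 of 27 of this list were above 0, where 48.1% of all genes were. Under TMM in cells of at most 5000 UMIs the counts above 0 were 7 of 13 for NF-kB genes, 5 of 11 for interleukin-1 and TNF genes, 7 of 13 for survival genes and 8 of 25 for immediate early genes, where 19.3% of all genes were. The median of the immediate early genes turned to -0.03 in APP/PS1. None of these 4 lists had a gene past -0.5 in both libraries in either scaling.

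**Figure D5:**
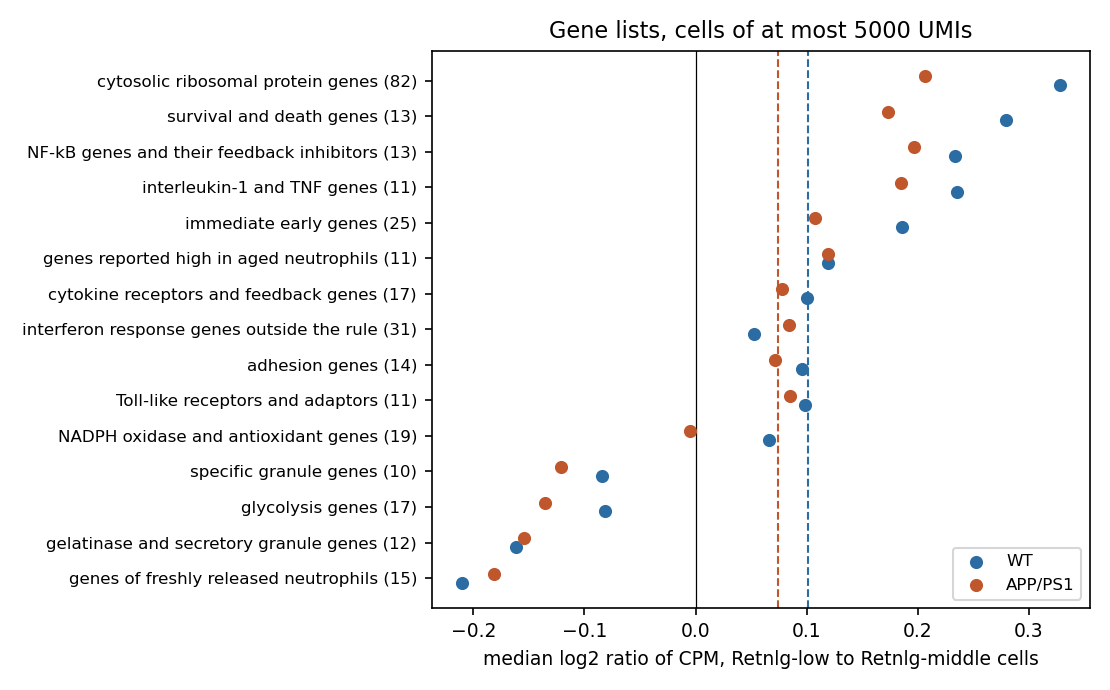
Median log2 ratio of CPM, Retnlg-low cells to Retnlg-middle cells, for 15 gene lists in cells of at most 5000 UMIs (number of genes tested in parentheses), in WT (blue) and APP/PS1 (orange). Dashed lines mark the median of all 3690 genes in each library (0.10 and 0.07). Granule, freshly released neutrophil and glycolysis lists lie below 0 in both libraries, and ribosomal, survival, NF-kB and interleukin-1 lists lie above the dashed lines.

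The promoters of the NF-kB list are shown for the letters GGANTTNCC, a form of the kappa B site to which NF-kB dimers bind. The search was again on both strands in the 250 bases before each RefSeq start. Of 11 genes of the list with a promoter in the table, 7 held them (Cyld, Nfkb2, Nfkbia, Nfkbid, Rel, Tnfaip3 and Tnip1), against 3.15% of 32851 stretches. As above, a gene with several starts had more chances of a match than a single stretch, so these shares are unlike measures. The letters were also in 3 of 10 interleukin-1 and TNF genes, 2 of 21 immediate early genes and 0 of 11 survival genes, and in 3 of 13 genes of freshly released neutrophils (Anxa1, Cxcr2 and Pglyrp1). Of the 25 higher genes with a promoter only Plac8 held them, and none of the 5 lower genes. Ccrl2, a chemerin-binding receptor that neutrophils induce on activation and that stood at 387 against 253 CPM (WT) and 676 against 497 CPM (APP/PS1) (ratios 0.61 and 0.44), held 1 match. With the matched letters in capitals, 5′ to 3′ on the strand of the gene, the stretches lie at chr12:55492807-55492835, chr10:19015416-19015444, chr11:23771043-23771071, chr9:111057568-111057596 and chr5:100563289-100563317.
Nfkbia: ctggtcgggaGGACTTTCCagccactcag
Tnfaip3: tcacgtgactGGAATTTCCatcggaaatc
Rel: cgtaagcagcGGGAAATCCccccccctcc
Ccrl2: tcctcacacaGGACTTTCCcccggggctt
Plac8: gtgactggaaGGACTTGCCagcccctgcc
In Rel the letters lie on the opposite strand, and Nfkbia holds a further match 29 bases before its start. The Tnfaip3 and Plac8 stretches lie before RefSeq starts that are inside the GENCODE bounds of these genes. The letters TGANTCA, the AP-1 site, were found in 2 of the 25 higher genes, Bcl2a1a and Itgax, and in 6.75% of all stretches.

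The other lists are given by their counts, to be read against the 55.1% of all genes above 0. Genes reported high in aged neutrophils were above 0 in 7 of 11, with medians of 0.12 in WT and 0.12 in APP/PS1, which under TMM turned to -0.05 in WT and -0.02 in APP/PS1. Cxcr4, the receptor that returns neutrophils to the marrow, stood at 930.0 against 741 CPM (WT) and 874 against 736 CPM (APP/PS1) (ratios 0.33 and 0.25). Ltb4r1, the leukotriene B4 receptor, had ratios of -0.21 and -0.48. Interferon response genes that the rule did not use were above 0 in 22 of 31, with medians of 0.05 in WT and 0.08 in APP/PS1, and under TMM of -0.12 in WT and -0.05 in APP/PS1. Toll-like receptors and adaptors were above 0 in 4 of 11, adhesion genes in 8 of 14, and cytokine receptors and feedback genes in 10 of 17. NADPH oxidase and antioxidant genes were above 0 in 7 of 19, and C-type lectin, Fc and CD300 receptors, of which Clec4n was the one gene past 0.5, in 15 of 22. Under TMM the medians of the Toll-like receptor, adhesion, cytokine receptor, lectin, chemoattractant receptor and granulopoiesis factor lists turned from above to below 0 in both libraries, as did that of all genes. Chemokines split, with Ccl3 at 0.52 and 0.15, Ccl4 at 0.47 and -0.03, Cxcl2 at -0.03 and -0.21 and Ccl6 at -0.32 and -0.35. Ccl5 stood at 127 against 96.7 CPM (WT) and 331 against 72.9 CPM (APP/PS1). Chemoattractant and chemokine receptors were above 0 in 6 of 11, granulopoiesis transcription factors in 6 of 13, S100 and annexin genes in 3 of 8 and whey acidic protein antiproteases in 0 of 3. Nuclear retained and rRNA-like transcripts, which can be raised in damaged cells or nuclei, were above 0 in 6 of 6. Their medians were 0.13 in WT and 0.12 in APP/PS1, and under TMM -0.04 in WT and -0.01 in APP/PS1. Cell damage was not tested. Ribosomal protein genes, taken by symbol after the values were seen, were above 0 in 78 of 82, with medians of 0.33 in WT and 0.21 in APP/PS1. Mitochondrially encoded genes were above 0 in 7 of 9, and with all base cells in 11 of 11. With all base cells the mitochondrial share of UMIs was 0.825% in WT and 0.537% in APP/PS1 Retnlg-low cells, against 0.569% and 0.399% in Retnlg-middle cells, and the median over cells was 0.309% and 0.225% against 0.298% and 0.231%. In cells of at most 5000 UMIs the mitochondrial genes summed to 3640.0 against 3366 CPM in WT and to 3120.3 against 2758 CPM in APP/PS1. RNA quality was not measured otherwise.

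Retnlg-low cells also varied among themselves, as measured with all base cells. Thinned to 1000 UMIs, the 10 genes of highest variance to mean were Hbb-bs, Hba-a1, Hba-a2, Hbb-bt, Ccl5, S100a9, S100a8, Gzma, Cxcl2 and Gm42418. Hbb-bs had a variance to mean of 238 in WT and 215 in APP/PS1, against 214 and 202 in Retnlg-middle cells, and Cxcl2, a chemokine that attracts neutrophils, of 7.02 and 6.91 against 6.68 and 6.89. Among all base cells, 10 cells held 60.9% of the Hbb-bs UMIs of WT and 91.6% of those of APP/PS1 Retnlg-low cells.

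Retnlg-low cells were also compared between genotypes. Of 4202 genes with at least 200 UMIs over the Retnlg-low cells of both libraries, 7 (0.167%) were higher in APP/PS1 by a log2 ratio of 1 or more and 49 (1.17%) lower, with all base cells. In Retnlg-middle cells these were 5 (0.0838%) and 38 (0.637%) of 5966 genes. Genotype and library cannot be told apart with 1 library each. Marker lists of other cell types also differed between WT and APP/PS1 Retnlg-low cells. Monocyte markers summed to 2036 and 1333 CPM, and class II and dendritic cell markers to 480.3 and 194 CPM. Erythroid markers stood at 19541 and 8690 CPM, and B cell markers at 1069 and 199 CPM. NK markers (303 and 519 CPM) and T cell markers (55.8 and 70.0 CPM) went the other way. The part of these markers in the genotype ratios was not tested. The 7 higher genes were Plekhn1, Cd3d, Edem2, AW011738, Klrd1, Ccl5 and AW112010, and the 8 lowest Jchain, Igha, Igkc, Hbegf, Cd83, Cdkn1a, Slc12a2 and Nupr1. Jchain, Igha and Igkc, whose UMIs were those of a few WT barcodes, had ratios of -6.31, -5.78 and -3.86 in Retnlg-low cells and 0.86, 0.58 and 0.08 in Retnlg-middle cells. Hbegf, a membrane-bound growth factor, stood at 50.8 and 3.75 CPM in WT and APP/PS1 Retnlg-low cells, a log2 ratio of -3.76 (95% interval -4.59 to -3.03), against -4.84 in Retnlg-middle cells. Cdkn1a (p21), which halts the cell cycle, stood at 130.2 and 48.7 CPM, a ratio of -1.42 (95% interval -1.65 to -1.19), against -1.28. Edem2, a mannosidase-like protein of the endoplasmic reticulum, stood at 29.5 and 77.5 CPM, a ratio of 1.39 (95% interval 1.10 to 1.69), against 1.64. For these 3 genes the ratio of Retnlg-middle cells had the same sign as that of the Retnlg-low cells.

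With barcodes above 5000 UMIs left out, 6 genes (0.200%) were higher and 7 (0.233%) lower in APP/PS1 Retnlg-low cells, of 3001. The 7 lower genes were Cdkn1a, Dusp16, Cd14, Tgm2, Gpr132, Klra17 and Rhov, of which those outside the rule were picked after their values were seen. Cd14, the lipopolysaccharide co-receptor, stood at 959 CPM (WT) and 391 CPM (APP/PS1), a log2 ratio of -1.30 (95% interval -1.40 to -1.20), against -1.52 in Retnlg-middle cells. Tgm2 stood at 228 and 97.3 CPM, a ratio of -1.23 (95% interval -1.44 to -1.03), against -1.43. The 6 higher genes were Rnase6, Edem2, AW112010, Ccl5, Ctnnbip1 and AW011738. Ccl5, which NK and T cells express, stood at 331 CPM in APP/PS1 and 127 CPM in WT, with a ratio of 1.38 (95% interval 1.21 to 1.56) in Retnlg-low cells and -0.41 in Retnlg-middle cells. Of genes described above, of which Ccrl2 was not called, Ly6g had a ratio of 0.34 (95% interval 0.06 to 0.62) between genotypes in Retnlg-low cells and -0.38 in Retnlg-middle cells. Pmaip1 had ratios of 0.64 (95% interval 0.43 to 0.86) and 0.87, Ccrl2 of 0.81 (95% interval 0.70 to 0.91) and 0.97, and Gm2a of 0.03 (95% interval -0.08 to 0.14) and 0.08. The sign of the genotype ratio of Ly6g turned between Retnlg-low and Retnlg-middle cells, and this difference was not tested. Immediate early genes as a list had a median genotype ratio of 0.28 in Retnlg-low cells and 0.34 in Retnlg-middle cells, against 0.00 and 0.02 for all genes. Between the same libraries, nuclear retained and rRNA-like transcripts summed to 51283 CPM (WT) and 63154 CPM (APP/PS1) Retnlg-low cells, and to 46101 and 58207 CPM in Retnlg-middle cells. Mitochondrially encoded genes summed to 3640.0 and 3120.3 CPM in Retnlg-low cells and to 3366 and 2758 CPM in Retnlg-middle cells. The part of these differences in the genotype ratios was not tested.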

How the data were processed

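Per the labels and the study's methods, the authors prepared 1 droplet 3′ library per genotype from pooled blood neutrophils of 3 mice, and aligned and counted reads with Cell Ranger 5.0.0 on mm10. The deposited values were raw UMI counts per gene and barcode, with nothing normalized. No doublets were removed here; Scrublet scores (scanpy 1.11.5) gave an alternative without the 8% of barcodes of highest score.

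UMIs were summed over the cells of each library and Retnlg group and divided by all UMIs of those cells (CPM), with exact Poisson 95% intervals and exact conditional intervals for ratios (Python 3.11.15, numpy 2.4.6, scipy 1.17.1, pandas 2.3.3). These cover counting error only, since each genotype had 1 library and cells are not replicates, so no test was made. Genes with at least 200 UMIs over Retnlg-low and Retnlg-middle cells in each library were compared, Retnlg left out, and a call was a log2 ratio of 0.5 or more in the same direction in both libraries. Between genotypes it was 1 or more among genes with 200 UMIs over both. Counts of 5093 genes were also simulated under the Poisson model of the intervals, with 200 changed by a log2 ratio of 1. Of these, 99% of higher and 95% of lower genes were recovered, and none of 4893 unchanged genes was called. The intervals held the true ratio in 95.8% and 95.7%. The simulation checks the computation only. It holds no variation between cells or mice, so it gives no rate of false calls in the real data.

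The members and the 34 gene lists (488 of 499 entries in the files) were chosen with earlier results of these data known. Genes were named if they were in these lists, among the 15 highest or 15 lowest ratios past the limit in both libraries (8 were past it downwards), the 8 highest or lowest between genotypes, or the 10 of highest variance to mean with a mean of at least 0.05 UMIs. Alternatives were other cell filters, Retnlg limits, comparators, scalings (edgeR 4.0.16 TMM, R 4.3.3) and gene filters, and 4 further ones chosen after the data had been seen. Reads of near-identical genes (Bcl2a1, stefin A, H2-Q6 and ribosomal genes with pseudogenes) may be divided uncertainly. Promoter sequences are RefSeq's (GRCm38.p6), and the motifs and genes printed were chosen after values were seen.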

Additional observations from a re-analysis of the deposited data

Results flagged for a closer look

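Cyth3, an exchange factor for ARF GTPases, differed in direction between the libraries. Its log2 ratio of Retnlg-low cells to Retnlg-middle cells was 0.71 in WT and -0.51 in APP/PS1, a difference of -1.22 (APP/PS1 minus WT). It was the 1 gene of 5093 past 0.5 in opposite directions. The difference was not tested, with 1 library per genotype.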

How the results depend on the processing

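No replicate was left out, since each genotype had 1. No paired analysis was possible because each genotype had 1 library, so the groups share fewer than 2 replicate numbers. Genotype and library cannot be told apart, and intervals do not hold the variation between mice. Where a value changed with a setting, the cause was not tested. In some settings fewer cells or genes entered.

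The log2 ratio of Retnlg, by which the cells were chosen (-1.81 in WT and -1.82 in APP/PS1), was -1.70 and -1.73 from 2000 UMIs per cell, -1.99 and -2.09 after thinning, -1.56 and -1.52 with cells chosen on 1 random part of the UMIs and measured on the other, -2.97 and -2.98 for the bottom 10%, -2.42 and -2.51 against all other base cells, -2.03 and -1.95 without cells of 2 or more other UMIs, -1.88 and -1.93 between the 5th and 95th percentiles, -2.01 and -2.01 at most 5000 UMIs, and -1.86 and -1.86 under 15 other UMIs per 10000. It was -1.84 in WT with limits set over both libraries together and -1.86 in APP/PS1 without high Scrublet scores.

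The 97 higher genes became 17 after thinning, 52 with divided UMIs, 305 against all other cells, 13 without high Scrublet scores, 9 without 2 or more other UMIs, 31 under TMM, 401 with a filter of 50 UMIs, 1412 with none, 31 at most 5000 UMIs, 5 under 15 other UMIs per 10000, and at most 5000 UMIs 6 with TMM and 13 with library sizes without abundant classes. The 8 lower genes became 5 from 2000 UMIs, 3 after thinning, 5 with divided UMIs, 33 for the bottom 10%, 24 against all other cells, 5 without high Scrublet scores, 1 without 2 or more other UMIs, 29 under TMM, 5 as a mean over cells, 25 with a filter of 50 UMIs, 168 with none, and 28 at most 5000 UMIs with TMM. These counts are not all of the same genes. From 2000 UMIs all 8 had enough UMIs, yet only 2 of them were among the 5. The 5 without high Scrublet scores held 3 of the 8, and the 5 as a mean over cells held 4.

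The 7 genes higher in APP/PS1 became 4 with divided UMIs, 4 for the bottom 10%, 12 under TMM, 37 with a filter of 50 UMIs, 721 with none, and 3 under 15 other UMIs per 10000. The 49 lower became 10 after thinning, 19 with divided UMIs, 14 for the bottom 10%, 20 without high Scrublet scores, 10 without 2 or more other UMIs, 209 with a filter of 50 UMIs, 1050 with none, 7 at most 5000 UMIs, and 4 under 15 other UMIs per 10000.

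Of the values of the 15 highest and 8 lowest genes under the alternatives, 488 moved by less than their counting interval, 215 by more, and 29 changed sign. Without high Scrublet scores these were, in WT, AW112010 (-0.11), Fn1 (-0.045) and Ms4a4b (-0.13). Of the 15 highest genes, 8 then had enough UMIs to be compared, and 4 did at most 5000 UMIs. Without 2 or more other UMIs the genes that changed sign were, in WT, Ahnak (-0.16), Ccl5 (-0.056), Igkc (-0.93), Ms4a4b (-0.83), Nkg7 (-1.29) and Prf1 (-0.42), and in APP/PS1 Crip1 (-0.0063), Krtcap2 (-0.41), Lgals1 (-0.17) and Ms4a4b (-0.63). Only 2 of the 15 highest genes had enough UMIs in that setting, so most of these values are of genes under the filter. Under 15 other UMIs per 10000 the genes that changed sign were, in WT, Eif3i (-0.21), Igkc (-0.0071), Lgals1 (-0.27) and Nkg7 (-2.09), and in APP/PS1 Ahnak (-0.18), Lgals1 (-0.22), Ms4a4b (-0.12), Nkg7 (-0.073) and Prf1 (-1.53). Here too only 2 of the 15 highest had enough UMIs. Both settings left out cells by markers of other cell types. A fall of genes of those types thus follows from the choice of cells and is no separate check. Igkc turned for the bottom 10% (-0.50 in WT and -0.28 in APP/PS1) and at most 5000 UMIs in WT (-0.12). Ifit1 turned after thinning (0.11 in WT) and at most 5000 UMIs (0.064 and 0.11), and Tmem120a after thinning (0.037 in WT).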
